A study of Homo sapiens with 2 samples.

Results

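The HOX cluster miRNAs are the miRNAs whose hairpins lie among the HOX genes, namely miR-10a, miR-10b, miR-196a, miR-196b and miR-615. Members were taken by name, as either arm of these 5 stems in the small RNA tables of MDA-MB-231-IV2-1 cells, and 6 of the 425 miRNAs listed in the tables were members. They were hsa-miR-10a-5p, hsa-miR-10a-3p, hsa-miR-10b-5p, hsa-miR-196a-5p, hsa-miR-196b-5p and hsa-miR-615-3p. A further 5 products of these hairpins were listed in neither library, which were miR-10b-3p, miR-196a-3p, miR-196a-1-3p, miR-196b-3p and miR-615-5p. MDA-MB-231 is a human triple-negative breast cancer cell line, and IV2-1 is a highly metastatic subline of it that was isolated by passage through mice. The control library came from IV2-1 cells transfected with scrambled siRNA, and the knockdown library came from IV2-1 cells transfected with a pool of siRNAs against the long non-coding RNA LOC550643. They are called control cells and knockdown cells here. RNA was extracted 48 h after transfection in both. Each condition had 1 library, so differences between the libraries have no replicate check and no p-value is given. As LOC550643 is not a miRNA, the tables give no check of its depletion.

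A miRNA is cut from a hairpin transcript, and either strand of the hairpin stem, called the 5p and the 3p arm, can be loaded into an Argonaute protein. Bases 2 to 8 of the mature miRNA, the seed, pair with target mRNAs. The HOX genes encode homeodomain transcription factors that specify position along the body axis, and their miRNAs sit at corresponding places in the paralogous clusters, miR-10 beside the HOX4 genes and miR-196 beside the HOX9 genes. Several of them target HOX mRNAs, a textbook case being the cleavage of HOXB8 mRNA by miR-196. In breast cancer, miR-10b is the best known of these miRNAs, as a promoter of invasion and metastasis that represses HOXD10.

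The mature sequences are shown to separate the seed groups and to show which products can be traced to 1 locus. Sequences are from RefSeq (GRCh38.p14), 5′ to 3′, with the seed in capitals, and 5 of the 6 listed members had an entry.
miR-10a-5p: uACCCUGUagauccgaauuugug
miR-10a-3p: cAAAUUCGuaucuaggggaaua
miR-196a-5p: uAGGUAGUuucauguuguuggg
miR-196b-5p: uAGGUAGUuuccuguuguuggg
miR-615-3p: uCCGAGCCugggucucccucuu
Among the 350 listed miRNAs with a RefSeq sequence, the 2 miR-196 products shared their seed with each other alone, and no other miRNA had the seed of miR-10a-5p, of miR-10a-3p or of miR-615-3p. miR-10b-5p was not among the 350, so whether it has the seed of miR-10a-5p was not compared here. The sequences of miR-196a-5p and miR-196b-5p differ by 1 substitution, A12C, counted from the 5′ end with the base of miR-196a-5p first.

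All 4 HOX clusters were represented by at least 1 read, but the evidence for each of them differed widely. HOXB was represented by both arms of the MIR10A hairpin, HOXC by miR-615-3p, HOXD by miR-10b-5p, and HOXA by a single read of miR-196b-5p in control cells. Reads assigned to miR-10b-5p can come from miR-10a-5p, and a read assigned to miR-196b-5p can come from miR-196a-5p. This was not tested, so HOXD and HOXA are represented only as the reads were assigned. The mature miR-196a-5p is encoded identically by MIR196A1 in HOXB and MIR196A2 in HOXC. Its reads cannot be told apart between these loci, and the 3p products that differ between the hairpins, miR-196a-1-3p and miR-196a-3p, were not listed. The positions that follow are those of GENCODE 29 on GRCh38, and RefSeq gave each hairpin the same coordinates.
The MIR10A hairpin lies on the minus strand of chromosome 17 from 48579838 to 48579947, inside the first exon of HOXB4 and upstream of its start codon, that is in the annotated 5′ untranslated region, and also in introns of HOXB3 and, on the other strand, of the antisense gene HOXB-AS3. Its 5p product takes bases 22 to 44 and its 3p product bases 63 to 84 of the 110 nt hairpin. On the plus strand of chromosome 2, MIR10B lies from 176150303 to 176150412 in an intron of HOXD3, 810 bases from HOXD4. The MIR196A1 hairpin is on the minus strand of chromosome 17 from 48632490 to 48632559, in an intron of HOXB7. Its counterpart MIR196A2 is on the plus strand of chromosome 12 from 53991738 to 53991847, in an intron of HOXC6, and MIR615 lies on the same strand from 54033950 to 54034045, in introns of HOXC5 and HOXC4. The MIR196B hairpin, on the minus strand of chromosome 7 from 27169480 to 27169563, overlaps an exon of a HOXA9 transcript annotated as a processed transcript, without a coding sequence, and, on the other strand, an exon of HOXA10-AS.

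**Figure D1:**
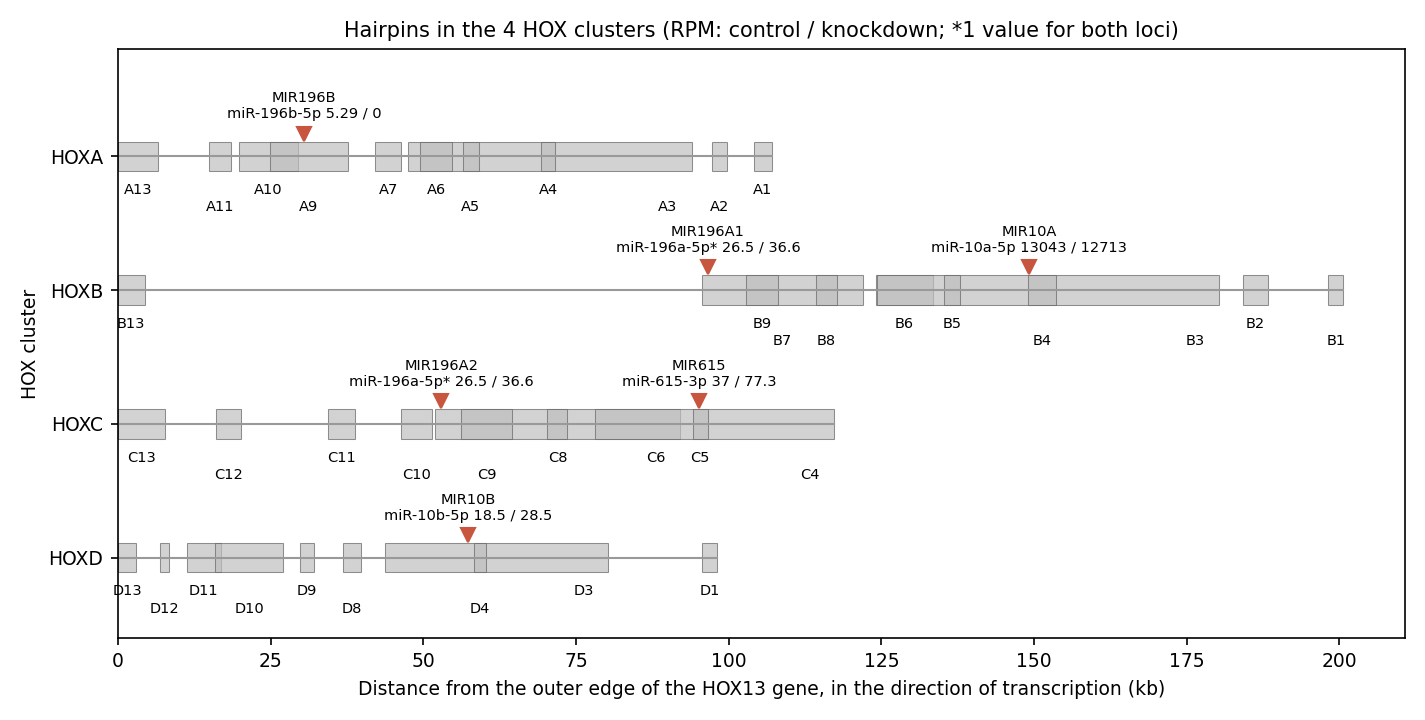
Map of the 4 HOX clusters, drawn to scale in kb from the outer edge of the HOX13 gene in the direction of transcription, with genes as grey boxes and hairpins as red triangles. The RPM of the control and of the knockdown library is written at each hairpin, and MIR10A in HOXB stands apart with 13043 and 12713 RPM while no other hairpin reaches 100 RPM.

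The tables give reads assigned to each mature miRNA as RPM, scaled to the reads on all miRNAs of the library. From the spacing of the low values 1 read is worth 5.29 RPM in control cells and 2.034 RPM in knockdown cells, which places about 189034 and 491541 reads on miRNAs. A level of 3 reads, 15.9 and 6.10 RPM, was taken as the floor, and the intervals given here are 95% Clopper-Pearson intervals that cover counting error only. The sources used here name no molecular identifiers, and the efficiency with which each miRNA is captured in a library was not corrected. Mature miRNAs are 21 to 23 nt long in this group and each yields 1 read, so RPM was compared between them without division by length. Of 6 markers of epithelial cells (miR-200a-3p, miR-200b-3p, miR-200c-3p, miR-141-3p, miR-429 and miR-205-5p), 4 were at 0 in both libraries, and the sum of the list was 10.58 and 8.14 RPM. The 4 miRNAs taken as markers of mesenchymal-like breast cancer lines (miR-221-3p, miR-222-3p, miR-100-5p and miR-138-5p) were all listed. They summed to 187607 and 132829 RPM, most of it miR-100-5p. The marker lists were chosen with earlier results of these data known, so their levels are a description and not a test of cell type. Of 6 miRNAs of blood cells, miR-486-5p alone was listed, at 74.06 and 89.5 RPM.

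The balance between miR-10a and miR-10b in this metastatic subline lay almost wholly with miR-10a. The value of hsa-miR-10a-5p was 13043 RPM in control cells (interval 12539 to 13567 RPM) and 12713 RPM in knockdown cells (12404 to 13032 RPM). It ranked 11th of 376 and 10th of 375 listed miRNAs. The value of miR-10b-5p was 18.5 RPM in control cells (5.77 to 54.2 RPM) and 28.5 RPM in knockdown cells (15.6 to 47.8 RPM). miR-10a-5p was thus 704-fold and 446-fold higher than miR-10b-5p within the same library, and the intervals were far apart in both.
Of the reads on both miRNAs, miR-10b-5p held 0.142% in control cells (0.0441 to 0.414%) and 0.224% in knockdown cells (0.122 to 0.375%), shares whose intervals overlapped. As miR-10a-5p and miR-10b-5p are nearly identical in sequence, reads of the one can be assigned to the other. The control values correspond to 2465.58 estimated reads of miR-10a-5p and 3.50 of miR-10b-5p, neither of which is a whole number, each within 0.1 of a read of the midpoint between whole numbers, whereas the knockdown values correspond to 6250.08 and 14.0013 reads. Among all values up to 20 reads, 12 of 253 in control cells and 14 of 224 in knockdown cells lay as close to such a midpoint. How the authors' tool divides reads between the pair was not tested. The passenger arm miR-10b-3p, which would mark the MIR10B hairpin, was listed in neither library.

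**Figure D2:**
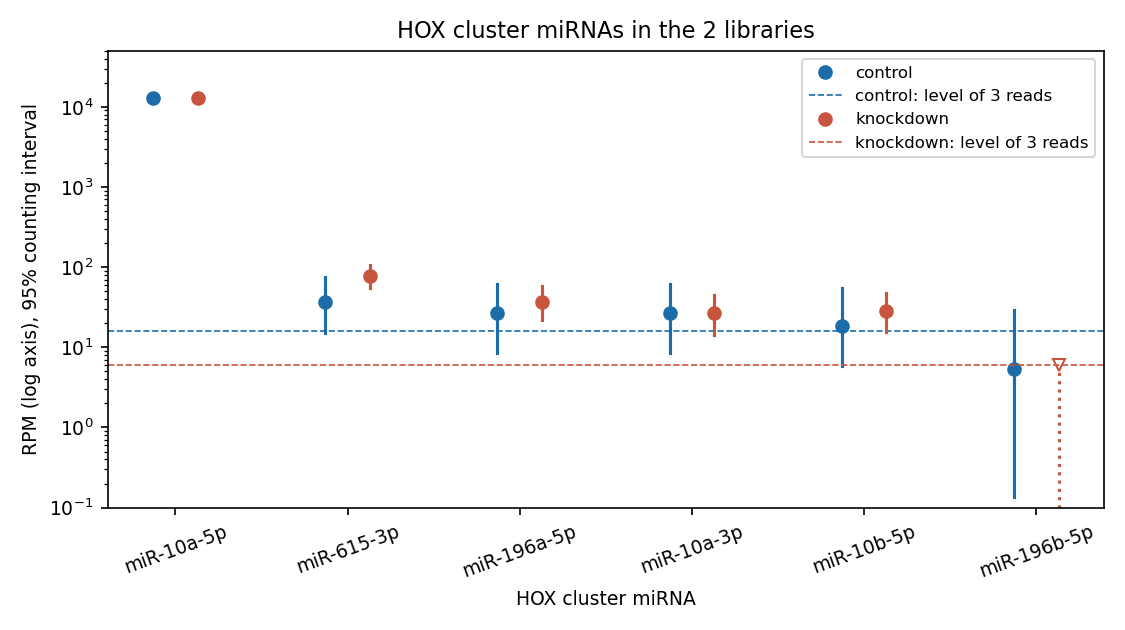
Levels of the 6 listed HOX cluster miRNAs in RPM on a log axis, with points for the control (blue) and knockdown (red) library, bars for the 95% counting intervals, dashed lines for the level of 3 reads, and an open triangle for a value of 0, drawn at the level of 3 reads. The level of miR-10a-5p is 13043 and 12713 RPM, and the other 5 lie under 100 RPM.

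The HOX cluster miRNAs together made up 1.32% of the miRNA reads in control cells and 1.29% in knockdown cells. Within this sum, miR-10a-5p held 99.14% and 98.69%, and the other listed members added up to 113.8 and 168.8 RPM. The order below miR-10a-5p was miR-615-3p, miR-196a-5p, miR-10a-3p, miR-10b-5p and miR-196b-5p in control cells, and neighbours in this order had overlapping intervals. In knockdown cells miR-10b-5p and miR-10a-3p changed places, again with overlapping intervals, and the interval of miR-196b-5p, 0 to 7.5 RPM for no read, lay below the intervals of all the others. The interval of miR-615-3p there, 54.7 to 106 RPM, lay above those of miR-10b-5p and miR-10a-3p and overlapped that of miR-196a-5p.

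The products of the remaining loci were low. The value of miR-615-3p, from the HOXC5 intron, was 37.0 RPM in control cells (7 reads, 14.9 to 76.3 RPM) and 77.3 RPM in knockdown cells (38 reads, 54.7 to 106 RPM). For miR-196a-5p the values were 26.5 RPM (5 reads, 8.59 to 61.7 RPM) and 36.6 RPM (18 reads, 21.7 to 57.9 RPM). These intervals overlapped between the libraries for each of the 2 miRNAs.
With 1 read (5.29 RPM) in control cells and none in knockdown cells, miR-196b-5p was under the floor in both. The floor of 3 reads, 6.10 RPM, is the limit set for its absence from knockdown cells, and the upper end of the wider Clopper-Pearson interval for no read is 7.5 RPM. Because the substitution that separates it from miR-196a-5p is a single base, a read of it can also come from miR-196a-5p, which was not tested.
The 5 unlisted products are at 0 in both libraries, which at the floor of 3 reads allows up to 15.9 RPM in control cells and 6.10 RPM in knockdown cells for each of them, and up to 19.5 and 7.5 RPM by the Clopper-Pearson interval.

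The MIR10A hairpin was read almost only from its 5p arm. The value of hsa-miR-10a-3p was 26.45 RPM in control cells (5 reads, 8.59 to 61.7 RPM) and 26.44 RPM in knockdown cells (13 reads, 14.1 to 45.2 RPM). The 5p arm therefore held 99.80% of the reads of the hairpin in control cells (99.53 to 99.93%) and 99.79% in knockdown cells (99.65 to 99.89%). As both arms are counted in the same library, this share does not depend on the scaling between libraries.
The same share was computed for the 40 hairpins with both arms listed and at least 100 reads in each library. A hairpin with an unlisted arm was left out, however one-sided its reads were. An example is let-7i, with let-7i-5p at 84599 RPM in control cells and 82897 RPM in knockdown cells and no 3p arm listed. The places and the median given below therefore hold among these 40 alone. Arms were paired by name, so a name with products of more than 1 hairpin was counted as 1 hairpin here. For let-7a, the further product let-7a-2-3p, at 15.87 and 14.24 RPM, was left out of the share. In order of the mean 5p share MIR10A was the 4th of the 40, after miR-30d (99.83%) and before let-7a (99.66%). By the share of the more abundant arm, whichever that was, MIR10A was the 9th. Neighbours in these orders were not told apart. The intervals of MIR10A hold the share of miR-30d in both libraries (99.81% and 99.86%). In control cells alone the share of let-7a, 99.83%, was above that of MIR10A. The 5p arm was the more abundant one in 21 of the 40 hairpins, and the median share of the more abundant arm was 99.05%, so that strong use of 1 arm was common. A share this near 100% has little room to move, so the small difference in the 5p share of MIR10A between the libraries, 0.0052 percentage points, says little about the 3p arm, whose own fold change has a wide interval.

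**Figure D3:**
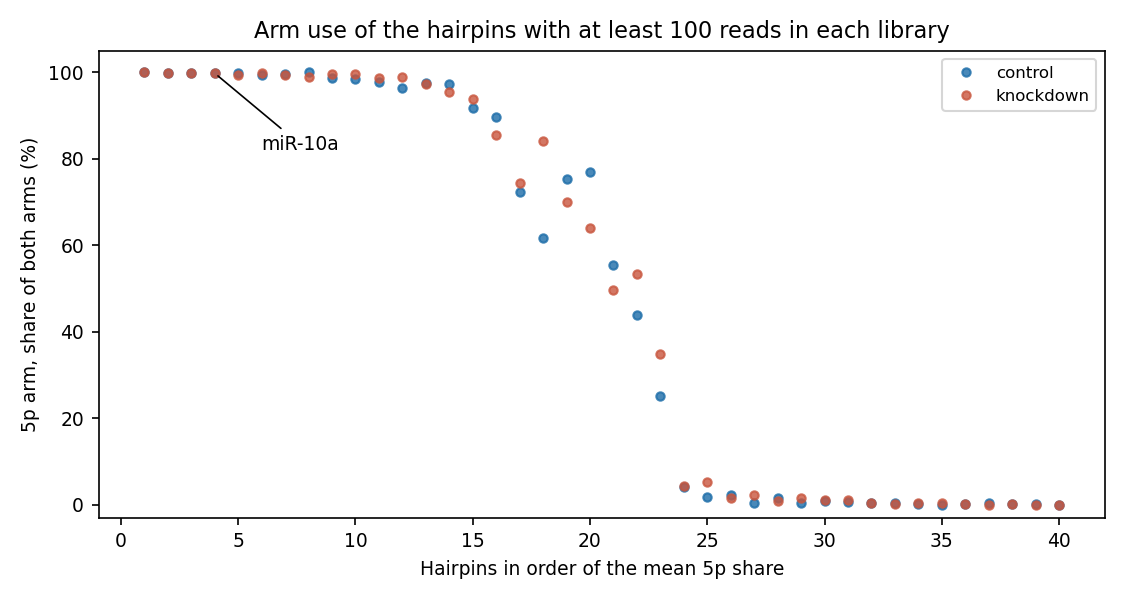
Share of the 5p arm among the reads of both arms, in percent, for the 40 hairpins, with arms paired by name. Each has at least 100 reads in each library, and they are ordered by the mean of the control (blue) and knockdown (red) values. The MIR10A hairpin is the 4th from the left, at 99.80% and 99.79%, close to the upper end of the axis, where no share has much room to differ between the libraries.

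The study asked which miRNAs change when LOC550643 is depleted. For the most abundant HOX cluster miRNA the difference between the libraries was small and its sign depended on the scaling. The log2 fold change of miR-10a-5p, taken as knockdown over control after adding 1 RPM, was -0.04, with a counting interval of -0.10 to 0.03 that holds 0. It rests on 2466 and 6250 reads, and both ends of its interval lie far inside 2-fold. The sign turned when the libraries were scaled by the median of ratios (0.16, interval 0.09 to 0.23) or by the 75th percentile (0.25, interval 0.18 to 0.31), and neither of these intervals holds 0. For miR-10a-3p the log2 fold change was -0.00032, with a wide interval of -1.58 to 1.84.
For miR-10b-5p the log2 fold change was 0.59 (-1.24 to 2.49), and for miR-196a-5p it was 0.45 (-1.01 to 2.25). A difference was not detectable at this depth for either of them. The log2 fold change of miR-615-3p, 1.04, was the only one beyond 2-fold among the 5 members with more than 3 reads in both libraries. Its interval, -0.12 to 2.47, also holds 0. With a pseudocount of 10 RPM the value fell under 2-fold (0.89). With median-of-ratios scaling it was 1.24 (0.08 to 2.67) and with 75th-percentile scaling 1.32 (0.16 to 2.75), and these intervals no longer hold 0. No fold change is given for miR-196b-5p, which was under the floor in both libraries.

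Counted against all miRNAs, the members gave 1 of 5 beyond 2-fold in the higher direction and none in the lower direction where both libraries held more than 3 reads. Of the 201 miRNAs with more than 3 reads in both, 3.48% exceeded 2-fold in the higher direction and 10.9% in the lower direction. Over all 425 miRNAs, whatever their reads, 17.9% exceeded 2-fold upward and 27.3% downward. On that basis miR-615-3p counted as higher and miR-196b-5p as lower, the latter on 1 read against none. The median log2 fold change of the 5 members was 0.45 beside -0.19 for the 201 miRNAs, and 4 of the 5 members rest on at most 38 reads in a library.

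**Figure D4:**
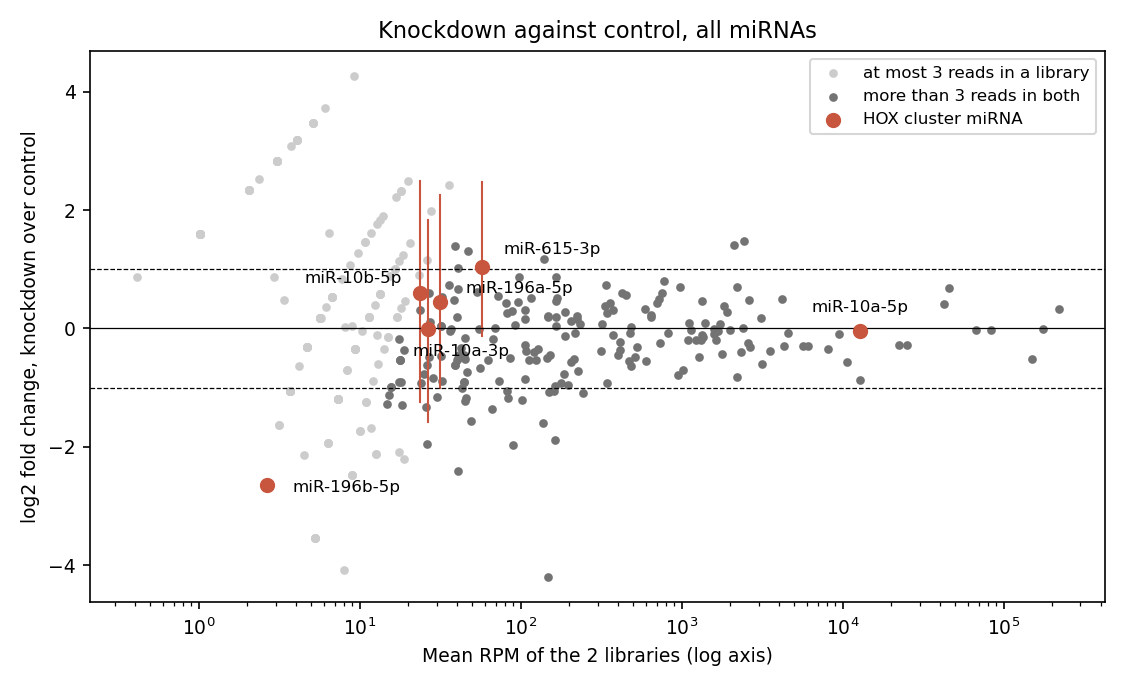
Log2 fold change of knockdown over control against the mean RPM of the libraries (log axis) for all 425 miRNAs, with the HOX cluster miRNAs in red and bars for the counting intervals of those with more than 3 reads in both libraries. The dashed lines mark 2-fold. The point of miR-10a-5p lies at -0.04 with an interval smaller than the point, the intervals of the 4 low members all cross 0 when the libraries are scaled to the same total, and the point of miR-196b-5p rests on 1 read.

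Outside the HOX clusters, miR-10a-5p has relatives in the miR-99 and miR-100 miRNAs, which belong to the same ancient family. They are printed with their seeds in capitals to show that their seeds differ from that of miR-10a-5p.
miR-100-5p: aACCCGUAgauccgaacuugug
miR-99a-5p: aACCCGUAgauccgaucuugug
miR-99b-5p: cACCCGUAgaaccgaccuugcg
The hairpins of these are MIR100 on chromosome 11, MIR99A on chromosome 21 and MIR99B on chromosome 19. The longest run of bases that miR-10a-5p shares with miR-100-5p is 11 nt, from its base 7 to its base 17, and the longest runs shared with miR-99a-5p and miR-99b-5p are 10 and 5 nt. In level, miR-100-5p exceeded miR-10a-5p, with 176487 RPM in control cells and 123748 RPM in knockdown cells, 13.5 and 9.73 times as much. Its log2 fold change was -0.51 (-0.53 to -0.49), an interval that does not overlap that of miR-10a-5p.
The level of miR-99b-5p was similar to that of miR-10a-5p, at 9813 and 9206 RPM, and its log2 fold change was -0.09 (-0.17 to -0.01). For miR-99a-5p the values were 1153 and 1133 RPM, with a log2 fold change of -0.03 (-0.25 to 0.21). The 3p arm miR-99b-3p went from 1127 to 1558 RPM (0.47, interval 0.25 to 0.69). The intervals of miR-99b-5p and miR-99a-5p overlap that of miR-10a-5p, and that of miR-99b-3p lies above it.

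The 3 miRNAs whose pair of values was nearest to that of miR-10a-5p, by distance on the log2(RPM + 1) scale over the 2 libraries, were miR-30d-5p (distance 0.573), miR-27b-3p (0.598) and miR-99b-5p (0.621). Both miR-30d-5p, at 12627 and 8555 RPM, and miR-27b-3p, at 16505 and 9039 RPM, were lower in knockdown cells, with log2 fold changes of -0.56 (-0.63 to -0.49) and -0.87 (-0.93 to -0.80). For miR-10a-3p the nearest were miR-345-5p (0.103), miR-132-3p (0.309) and miR-1303 (0.344), all with 4 to 6 reads in control cells. Likeness over 2 libraries is a description of level only.

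The isoforms of LOC550643 sequenced by the authors (V1 of 718 nt, V2 of 581 nt and V3 of 476 nt) were searched for matches to the seeds. The reverse complements of bases 2 to 8 were ACAGGGT for miR-10a-5p, CGAATTT for miR-10a-3p, ACTACCT for both miR-196 products and GGCTCGG for miR-615-3p, each searched on the sense strand. None of these letters occurred in V1, V2 or V3. Of the 350 listed miRNAs with a RefSeq sequence, 6.0% (21) had such a 7-base match in V1. With the shorter match to bases 2 to 7, miR-10a-3p alone among these members matched, once in each isoform (GAATTT), and 16.6% of the 350 miRNAs did so in V1.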

How the data were processed

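Small RNA was sequenced from 2 libraries of MDA-MB-231-IV2-1 cells, 1 per condition. Per the labels the cell line field names MDA-MB-231 and the titles name the IV2 subline, and the labels and the paper also differ in the sequencing kit they give. Mature miRNAs were quantified by the authors with a tool of their own, and the values were deposited as RPM. FastQC, cutadapt and hg38 are named in the submitters' processing notes, while versions, the miRNA reference release and any filter are not given in the sources used here. Values summed to 999996 and 999845 RPM.

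Values were rescaled to the same total, missing miRNAs were set to 0, and fold changes used log2(RPM + 1), which understates the change of low miRNAs. The RPM worth of 1 read was fitted to the values up to 20 reads within 0.1 read of a whole number. Of these low values 92.9% and 91.5% were whole. No count test was run, as each condition had 1 library. Reads were rounded to whole numbers for the intervals, 3.50 reads to 4. The interval of a fold change comes from the knockdown share of the reads of both libraries. Simulated data were also run, but no outcome of that run is given here. It is not used as evidence for the fold changes, intervals, arm shares or floor reported for the members.

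Members and lists were chosen with earlier results of these data known. Named miRNAs were the members, miR-99 and miR-100 relatives, the 3 miRNAs nearest in level to each arm of miR-10a, the hairpins next to MIR10A in arm use, and markers. The minimum of 100 reads for arm use was set after the values were seen. Python 3.11.15, numpy 2.4.6, pandas 2.3.3, scipy 1.17.1 and matplotlib 3.10.9 were used.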

Additional observations from a re-analysis of the deposited data

How the results depend on the processing

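No paired analysis was possible because there was only 1 library for each condition, so no replicate could be left out either. The alternatives covered the scaling between libraries, the pseudocount, the fold threshold and filters on low values. The log2 fold change of miR-10a-5p was 0.16 with median-of-ratios scaling and 0.25 with 75th-percentile scaling in place of -0.04, since these scalings shift all log2 ratios by 0.20 and 0.28. It was -0.07 without the 5 most abundant miRNAs in the total, with an interval that ends just below 0. Under these 6 alternatives the values of miR-10a-3p, miR-10b-5p, miR-196a-5p and miR-615-3p stayed within their counting intervals. This says little, as those intervals are far wider than the shifts that the alternatives make. The value of miR-10a-3p turned positive under the first 2 scalings (0.19 and 0.27). The counting interval of miR-615-3p, recomputed under those scalings, no longer held 0. Beyond 2-fold, 76 miRNAs were higher and 116 lower. These counts were 19 and 25 with a pseudocount of 10 RPM, 28 and 66 when miRNAs at 0 in a library were dropped, and 3 and 7 when a mean of 100 RPM or more was required. With 75th-percentile scaling they were 85 and 77, so that 52.5% of the calls were higher against 39.6%, and with median-of-ratios scaling 83 and 90, or 48.0% higher. The depth limits every member but miR-10a-5p, as none of the others exceeds 38 reads in a library.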
